A study of Danio rerio with 11 samples.

Results

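The genes described here are 49 listed genes of zebrafish neurons and neuron subtypes, measured in embryonic tails that hold the posterior spinal cord. They were chosen by name and not by level: 48 of the 49 names led to a gene identifier in the count table, 57 identifiers of 23617 in all, because 17 names led to 2 identifiers. For 8 of these 17 names both copies were listed. For the other 9 only 1 copy was listed, and its second copy was kept too. The 57 identifiers and the counts and medians of the roles therefore include copies that the list does not name. The listed name scg2a led to none and is named only. All 57 identifiers passed the filter on low counts and stand among the 20886 genes tested. Genes are given by their listed name where it led to 1 identifier. For the other 13 symbols, both identifiers are kept under the symbol of the gene name table and are called copy 1 and copy 2 in the order of their identifiers, and it is not known which is the a and which the b gene of the listed names. The embryos were lsd1 mutants and their wildtype siblings at 24 hours post fertilisation, and each library came from a pool of 5 tails cut behind the yolk sac. The 4 groups were mutants of line 36433 (3 libraries), wildtypes of line 36433 (3 libraries), mutants of line 23095 (3 libraries) and wildtypes of line 23095 (2 libraries). The labels give neither the lsd1 lesion of a line nor whether the mutants were homozygous. They do not say whether the pools came from separate clutches, so p-values measure only the spread between these pools.

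A neuron of the embryonic spinal cord first expresses proneural transcription factors such as Neurog1, then homeodomain factors such as Islet and Lhx proteins that fix its subtype, then RNA-binding and cytoskeletal proteins of axon growth, and then the synaptic vesicle and transmitter genes with which it signals. Motor neurons, Rohon-Beard sensory neurons, glutamatergic and inhibitory interneurons and cerebrospinal fluid-contacting neurons are all present in the zebrafish cord within the first day. Lsd1, encoded by kdm1a, is a histone demethylase that works in the CoREST complex, and the repressor REST is known in mammals to bring this complex to genes of mature neurons.

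Library totals ran between 8204459 counts (23095 mutant replicate 2) and 17195875 counts. The 57 identifiers together held 0.0902% to 0.144% of a library's counts, and the sparsest identifiers had 3 reads in a library. Levels are given as CPM, counts scaled to a common library size by edgeR's TMM factors. Transcripts of kdm1a (KDM1A in the symbol table) stood at 36.9, 34.2 and 34.8 CPM in mutants and 162, 155 and 135 CPM in wildtypes of line 36433, and 129.8, 171 and 130.3 CPM in mutants and 124 and 142 CPM in wildtypes of line 23095. They were low in the 36433 mutants alone, so the RNA does not check the genotype labels of line 23095. Among markers of the head, OTX1, rx3, 1 of 2 SIX3 and 1 of 2 EN2 identifiers did not exceed 11 counts in any library and failed the filter, whereas the other EN2 identifier and EMX2 had between 44 and 209 counts. The summed CPM of all 57 identifiers was 1017 to 1108 in the 36433 mutants, 924.2 to 1365 in the 36433 wildtypes, 1029 to 1362 in the 23095 mutants and 1223 to 1307 in the 23095 wildtypes. The groups of line 36433 overlapped in this sum, and so did those of line 23095.

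A gene is said to be called, to rise or to fall where its adjusted p was under 0.05, and log2 fold changes are mutant over wildtype. On average over both lines, 1 neuronal identifier fell and none rose. GAD1 copy 1, an enzyme of GABA synthesis, fell by 1.03 on the log2 scale (adjusted p = 0.0393, edgeR quasi-likelihood test, Benjamini-Hochberg over all genes tested), while 2.33% of all genes tested were called in either direction and 1.03% were called lower. At an unadjusted p under 0.05, 12 of 57 identifiers were lower and 0 were higher, against 8.83% and 8.57% of all genes. DESeq2, which called 5.19% of all genes and 2.52% lower, called 5 identifiers lower and 0 higher: GAD1 copy 1, SNAP25 copy 1, STMN2 copy 1, nefma and slc32a1. Below 0 were 38 of the 57 log2 fold changes (33 when libraries were scaled by their totals alone), and their median was -0.22, against 0.003 over all genes. Scaling by totals alone moved the median of all genes to 0.09 and that of the 57 identifiers to -0.14. The identifiers lay 0.23 below all genes with that scaling and 0.22 below them with TMM scaling. The pooled SD between libraries of a group in the members' median log2 deviation was 0.19, so the shift of -0.22 was about as large as that spread of single libraries. The error of the shift itself, an average over groups of libraries, was not computed. The shift was -0.12 without 36433 wildtype replicate 1 or 23095 mutant replicate 4. In RNA from whole tails, fewer neurons and less RNA per neuron cannot be told apart. The 2 wildtype libraries of line 23095 also lay apart from all other libraries in summed skeletal muscle and tailbud markers, given below. The part of this in the shift was not tested.

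**Figure D1:**
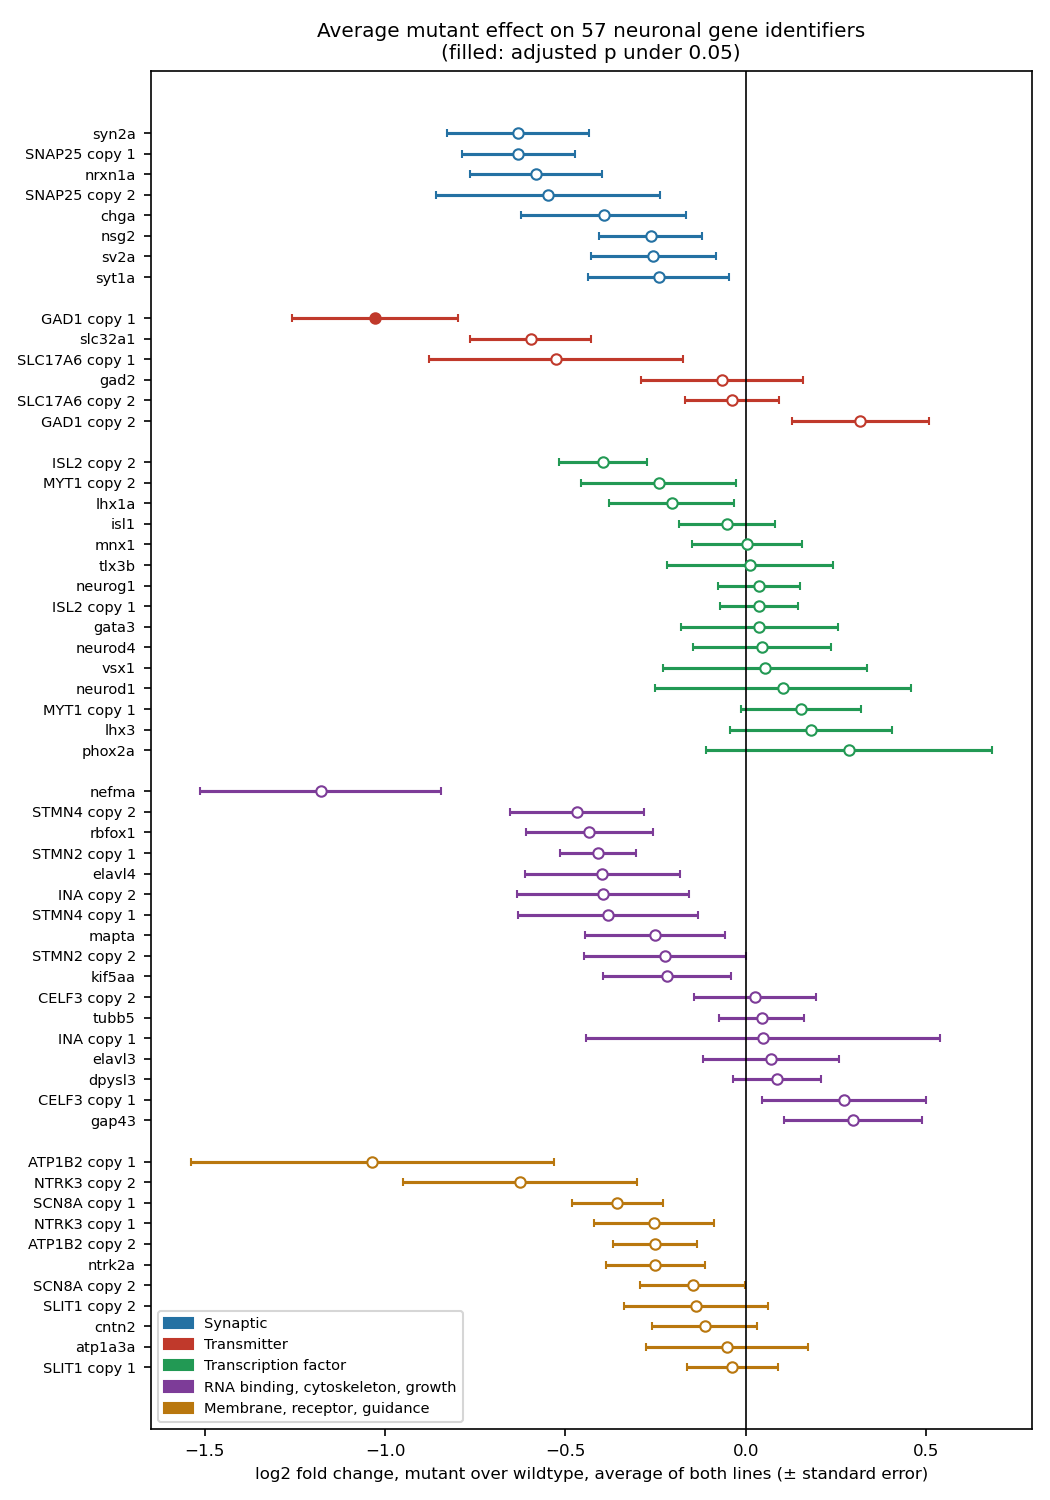
Log2 fold change (x axis, mutant over wildtype, mean of both lines) with its standard error for each of the 57 identifiers, listed by role down the y axis. The filled point marks GAD1 copy 1, the identifier called. All 8 synaptic and all 11 membrane identifiers lie left of 0 (8 and 9 with scaling by library totals alone), whereas 11 of 15 transcription factor identifiers lie right of it. In the fits that each left out 1 library, 6 to 9 of these 15 were below 0.

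The transmitter genes are enzymes and vesicular transporters that set which transmitter a neuron releases. They gave 6 identifiers, among them both copies of GAD1 and of SLC17A6, for each of which the list names only 1 copy. Of these 6 identifiers, 1 fell (1.03% of all genes), 5 had a log2 fold change below 0 (3 when libraries were scaled by their totals alone) and the median was -0.30. This median was -0.14 without 36433 wildtype replicate 1 and -0.20 without 23095 wildtype replicate 2. GAD1 copy 1 (ENSDARG00000027419), a glutamate decarboxylase that makes GABA, had 5.08, 6.51 and 5.36 CPM in mutants and 10.3, 7.73 and 10.9 CPM in wildtypes of line 36433, and 4.53, 7.901 and 3.05 CPM in mutants and 15.3 and 8.88 CPM in wildtypes of line 23095. Every mutant library was below every wildtype library of its line. On the log2 scale the fold change was -1.03 ± 0.23 (SE) on average, -0.77 ± 0.31 (SE) in line 36433 and -1.29 ± 0.34 (SE) in line 23095. The transporter slc32a1, which loads GABA and glycine into synaptic vesicles, had 5.62, 7.19 and 5.58 CPM in mutants and 8.98, 6.79 and 10.2 CPM in wildtypes of line 36433, and 5.84, 6.74 and 5.36 CPM in mutants and 11.4 and 7.797 CPM in wildtypes of line 23095. Its groups overlapped in line 36433 and did not overlap in line 23095, and its average log2 fold change of -0.60 ± 0.17 (SE) missed the threshold (adjusted p = 0.08601 by the Benjamini-Hochberg adjusted quasi-likelihood test of edgeR).

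The second GAD1 identifier did not share this direction. GAD1 copy 2 (ENSDARG00000093411) had 4.29, 5.07 and 6.52 CPM in mutants and 5.002, 3.03 and 4.74 CPM in wildtypes of line 36433, and 6.08, 8.68 and 6.32 CPM in mutants and 5.43 and 5.695 CPM in wildtypes of line 23095, and its average log2 fold change was 0.32 ± 0.19 (SE) with an adjusted p of 0.416 by the Benjamini-Hochberg adjusted quasi-likelihood test of edgeR. The 23095 mutants lay above the 23095 wildtypes, and the 36433 groups overlapped. Whether reads were shared between both GAD1 identifiers was not tested. With the counts of both GAD1 copies summed before the fit, an alternative chosen after seeing the data, the log2 fold change was -0.45 and was no longer called (adjusted p = 0.206, edgeR). The call of copy 1 held in 3 of the 11 fits that each left out 1 library. It was lost without 36433 mutant replicate 1, 2 or 3 (adjusted p = 0.0911, 0.0612 and 0.111, edgeR), 36433 wildtype replicate 2 or 3 (0.0519 and 0.0945), 23095 mutant replicate 1 or 4 (0.0557 and 0.0613) and 23095 wildtype replicate 1 (0.245). In those 8 fits and the other 3 the log2 fold change stayed between -1.22 and -0.80.

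The other GABA and glutamate genes were not called. The second glutamate decarboxylase gene, gad2, had 7.42, 4.25 and 6.37 CPM in mutants and 7.63, 3.699 and 5.44 CPM in wildtypes of line 36433, and 5.96, 5.96 and 3.78 CPM in mutants and 5.74 and 6.44 CPM in wildtypes of line 23095, a log2 fold change of -0.07 ± 0.22 (SE) on average. SLC17A6, the vesicular glutamate transporter of excitatory neurons, had log2 fold changes of -0.04 ± 0.13 (SE) for copy 2 (ENSDARG00000041150) and -0.53 ± 0.35 (SE) for copy 1 (ENSDARG00000001127). Copy 1 had 2.11, 2.56 and 1.01 CPM in mutants and 3.59, 1.28 and 2.18 CPM in wildtypes of line 36433, and 1.79, 2.59 and 0.9595 CPM in mutants and 2.15 and 3.59 CPM in wildtypes of line 23095, between 14 and 56 reads per library, and its groups overlapped in both lines.

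**Figure D2:**
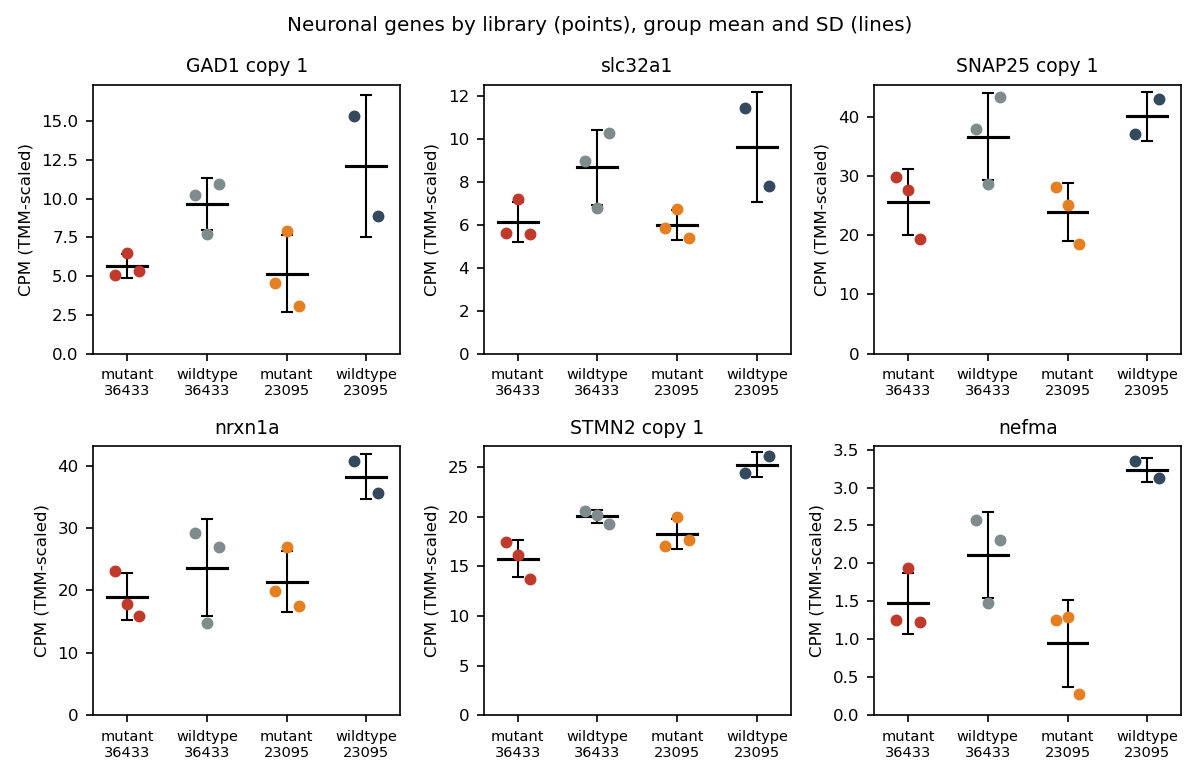
CPM after TMM scaling (y axis, from 0) in each library (points) of the 4 groups (x axis) for 6 neuronal identifiers, with the group mean and SD as lines. GAD1 copy 1 and STMN2 copy 1 lie lower in every mutant library than in every wildtype library of their line, and the other 4 identifiers overlap between the 36433 groups and not between the 23095 groups.

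Synaptic genes, which encode the fusion machinery and proteins of the vesicle and the presynaptic membrane, gave 8 identifiers. None was called on average by the Benjamini-Hochberg adjusted quasi-likelihood test of edgeR. At an unadjusted p under 0.05, 3 were lower and 0 higher (8.83% and 8.57% of all genes). DESeq2 called 1 of them lower, SNAP25 copy 1, against 2.52% of all genes. All 8 log2 fold changes were below 0 on average, also when libraries were scaled by their totals alone, with a median of -0.47 and a range of -0.63 to -0.24. In line 36433 the median was -0.25 with 7 of 8 below 0, and in line 23095 it was -0.67 with 8 of 8 below 0. The median in line 36433 was -0.11 without wildtype replicate 1, -0.38 without mutant replicate 1 and -0.42 without wildtype replicate 2 of that line.

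SNAP25, the presynaptic membrane SNARE, was measured at 2 identifiers. SNAP25 copy 1 (ENSDARG00000020609) had 29.9, 27.7 and 19.3 CPM in mutants and 37.9, 28.7 and 43.4 CPM in wildtypes of line 36433, and 28.1, 25.1 and 18.6 CPM in mutants and 37.2 and 42.99 CPM in wildtypes of line 23095. Only the 23095 groups were separate, and the average log2 fold change was -0.63 ± 0.16 (SE) with an adjusted p of 0.054 (the Benjamini-Hochberg adjusted quasi-likelihood test of edgeR), just above the threshold. It was called without 36433 wildtype replicate 1 (adjusted p = 0.0433, edgeR), 36433 wildtype replicate 2 (0.04998) or 23095 mutant replicate 1 (0.0382). SNAP25 copy 2 (ENSDARG00000058117) rested on fewer reads and had 2.499, 3.07 and 1.96 CPM in mutants and 2.31, 2.29 and 1.73 CPM in wildtypes of line 36433, and 1.73, 2.202 and 0.508 CPM in mutants and 4.17 and 2.98 CPM in wildtypes of line 23095. Its log2 fold change was 0.25 ± 0.41 (SE) in line 36433 and -1.35 ± 0.46 (SE) in line 23095, a difference between the lines of -1.60 ± 0.62 (SE) that was not called (adjusted p = 0.5904, edgeR).

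The groups of syn2a and nrxn1a were also separate in line 23095 and overlapped in line 36433. Over all genes, 17.4% were lower and 16.4% higher without overlap in line 23095. Synapsin 2, which tethers vesicles to the cytoskeleton, is encoded by syn2a and had 5.15, 3.57 and 3.11 CPM in mutants and 4.104, 3.97 and 5.503 CPM in wildtypes of line 36433, and 3.22, 2.07 and 2.54 CPM in mutants and 5.68 and 5.42 CPM in wildtypes of line 23095. For syn2a the log2 fold change was -0.63 ± 0.20 (SE) on average and -1.06 ± 0.29 (SE) in line 23095. The presynaptic adhesion receptor gene nrxn1a had 23.2, 17.9 and 15.9 CPM in mutants and 29.2, 14.7 and 26.9 CPM in wildtypes of line 36433, and 19.9, 26.9 and 17.4 CPM in mutants and 40.8 and 35.7 CPM in wildtypes of line 23095, and its log2 fold change was -0.32 ± 0.25 (SE) in line 36433 and -0.85 ± 0.27 (SE) in line 23095. The highest 36433 mutant library for nrxn1a exceeded the lowest 36433 wildtype library, and all 3 mutant libraries of line 23095 lay below both wildtype libraries. Without 36433 wildtype replicate 2, the average effect on nrxn1a was called (-0.71, adjusted p = 0.0446, edgeR).

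The remaining synaptic genes were not called either. For nsg2, a neuronal vesicle trafficking protein, the libraries gave 7.57, 7.13 and 7.39 CPM in mutants and 9.298, 7.06 and 11.1 CPM in wildtypes of line 36433, and 6.92, 6.87 and 6.49 CPM in mutants and 7.95 and 7.66 CPM in wildtypes of line 23095, a log2 fold change of -0.26 ± 0.14 (SE) on average. The granule protein gene chga had a log2 fold change of -0.39 ± 0.23 (SE), the vesicle glycoprotein gene sv2a -0.26 ± 0.17 (SE) and the calcium sensor gene syt1a -0.24 ± 0.20 (SE). For sv2a and syt1a the groups overlapped in both lines, and for chga and nsg2 they were separate in line 23095 only.

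The transcription factors of the list gave 15 identifiers, the class with the median nearest 0. No identifier was called on average by the Benjamini-Hochberg adjusted quasi-likelihood test of edgeR or by DESeq2. At an unadjusted p under 0.05, 1 was lower and 0 higher (8.83% and 8.57% of all genes). The median log2 fold change was 0.04, and 4 of 15 were below 0 (6 to 9 of 15 without single libraries). By line, the median was -0.10 in line 36433 with 10 of 15 below 0, and 0.14 in line 23095 with 6 of 15 below 0. In line 36433 it turned to 0.14 without wildtype replicate 1 and was -0.25 without wildtype replicate 2 and -0.02 without mutant replicate 3, and in line 23095 it was 0.06 to 0.08 without mutant replicate 1 or 4 or wildtype replicate 2. The average median lay between -0.01 and 0.06 without single libraries, below 0 without 36433 mutant replicate 1 or 36433 wildtype replicate 2. The identifier lower at the unadjusted threshold was ISL2 copy 2 (ENSDARG00000053499), an Islet factor of motor and Rohon-Beard neurons, with 8.198, 8.07 and 7.68 CPM in mutants and 10.9, 10.5 and 9.47 CPM in wildtypes of line 36433, and 7.22, 9.197 and 7.68 CPM in mutants and 10.7 and 10.7 CPM in wildtypes of line 23095. Every mutant library lay below the wildtype libraries of its line, and the average log2 fold change was -0.40 ± 0.12 (SE) with an adjusted p of 0.116 (edgeR). ISL2 copy 1 (ENSDARG00000003971) had an average log2 fold change of 0.04 ± 0.11 (SE), and that of isl1 was -0.05 ± 0.13 (SE).

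Motor neuron, interneuron, proneural and other factors had average log2 fold changes between -0.24 and 0.29, and none was called. For the motor neuron factor mnx1 the libraries gave 5.62, 6.32 and 4.78 CPM in mutants and 6.22, 5.51 and 4.86 CPM in wildtypes of line 36433, and 5.25, 6.22 and 5.48 CPM in mutants and 6.06 and 5.22 CPM in wildtypes of line 23095, a log2 fold change of 0.00 ± 0.15 (SE), and the groups overlapped in both lines. The motor neuron and V2a factor lhx3 had 0.18 ± 0.22 (SE) and lhx1a, a factor of ventral and dorsal interneurons, had -0.21 ± 0.17 (SE). The interneuron factors gata3 and vsx1 had 0.04 ± 0.22 (SE) and 0.05 ± 0.28 (SE). Among the proneural factors, neurog1 had 0.04 ± 0.11 (SE), neurod4 0.05 ± 0.19 (SE) and neurod1 0.10 ± 0.35 (SE). The zinc-finger factor MYT1, expressed as neurons leave the cell cycle, had 0.15 ± 0.17 (SE) for copy 1 (ENSDARG00000074030) and -0.24 ± 0.21 (SE) for copy 2 (ENSDARG00000102879). The lowest counts in this class belonged to phox2a, a factor of autonomic neurons, whose log2 fold change was 0.29 ± 0.40 (SE). For tlx3b, a factor of sensory and excitatory neurons, the log2 fold change was 0.01 ± 0.23 (SE).

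In line 23095 the groups of neurog1 did not overlap, and the mutants were higher: it had 17.5, 17.1 and 13.98 CPM in mutants and 20.4, 16.4 and 18.5 CPM in wildtypes of line 36433, and 16.4, 15.4 and 16.3 CPM in mutants and 14.6 and 12.3 CPM in wildtypes of line 23095. Its log2 fold change there was 0.26 ± 0.17 (SE), and it was -0.19 ± 0.15 (SE) in line 36433, where the groups overlapped. Both values missed the threshold. The libraries of lhx1a gave 5.23, 6.19 and 4.71 CPM in mutants and 8.91, 4.98 and 6.21 CPM in wildtypes of line 36433, and 6.26, 5.57 and 5.76 CPM in mutants and 5.93 and 6.65 CPM in wildtypes of line 23095, and those of MYT1 copy 1 gave 58.9, 49.4 and 49.4 CPM in mutants and 74.6, 35.6 and 46.5 CPM in wildtypes of line 36433, and 57.1, 68.7 and 60.9 CPM in mutants and 46.5 and 54.7 CPM in wildtypes of line 23095. MYT1 copy 2 had 16.7, 15.7 and 14.5 CPM in mutants and 25.6, 10.96 and 17.2 CPM in wildtypes of line 36433, and 15.2, 24.9 and 12.6 CPM in mutants and 23.1 and 18.98 CPM in wildtypes of line 23095. In all 3 cases the 36433 wildtypes spread more widely than the 36433 mutants did, with wildtype replicate 1 highest and replicate 2 lowest.

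Genes of RNA binding, cytoskeleton and axon growth gave 17 identifiers. None was called on average by the Benjamini-Hochberg adjusted quasi-likelihood test of edgeR. At an unadjusted p under 0.05, 4 were lower and 0 higher (8.83% and 8.57% of all genes). DESeq2 called 2 lower (nefma and STMN2 copy 1), against 2.52% of all genes. The median log2 fold change was -0.22, with 10 of 17 below 0. It was -0.35 without 23095 mutant replicate 2, -0.12 without 23095 mutant replicate 4 and -0.14 without 23095 wildtype replicate 1. The genes elavl3, tubb5, dpysl3 and gap43 had average log2 fold changes of 0.04 to 0.30, and none was called. Other pan-neuronal genes of this role, elavl4 and both STMN2 copies, were below 0 and are given below. The RNA-binding protein gene elavl3 had 102, 85.3 and 102 CPM in mutants and 133, 55.2 and 78.7 CPM in wildtypes of line 36433, and 92.6, 133 and 107 CPM in mutants and 112 and 106 CPM in wildtypes of line 23095, a log2 fold change of 0.07 ± 0.19 (SE), and the groups overlapped in both lines. The tubulin gene tubb5 had 0.04 ± 0.12 (SE), the collapsin response mediator gene dpysl3 0.09 ± 0.12 (SE) and the growth cone gene gap43 0.30 ± 0.19 (SE). In line 23095, gap43 was higher in each mutant than in each wildtype library, with a log2 fold change of 0.67 ± 0.29 (SE) that missed the threshold (adjusted p = 0.259, edgeR).

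Lower values were measured for other genes of this role. The neurofilament gene nefma had 1.25, 1.94 and 1.23 CPM in mutants and 2.57, 1.48 and 2.304 CPM in wildtypes of line 36433, and 1.25, 1.295 and 0.282 CPM in mutants and 3.35 and 3.12 CPM in wildtypes of line 23095, with 5 to 53 reads per library. The average log2 fold change was -1.18 ± 0.33 (SE) (adjusted p = 0.0898, Benjamini-Hochberg, edgeR quasi-likelihood), and it was -1.84 ± 0.50 (SE) in line 23095. Stathmin 2, a microtubule regulator of growing axons, is represented by STMN2 copy 1 (ENSDARG00000033234) with 17.5, 16.1 and 13.8 CPM in mutants and 20.7, 20.2 and 19.3 CPM in wildtypes of line 36433, and 17.1, 19.95 and 17.7 CPM in mutants and 24.4 and 26.2 CPM in wildtypes of line 23095. All mutant libraries lay below the wildtype libraries of their line, and the average log2 fold change was -0.41 ± 0.10 (SE) with an adjusted p of 0.0616 (edgeR). STMN2 copy 2 (ENSDARG00000070537) had -0.22 ± 0.23 (SE) and overlapped in both lines. Copy 1 was called without 36433 wildtype replicate 1 (adjusted p = 0.0411, edgeR) and, together with copy 2, without 23095 mutant replicate 2 (0.0426 for copy 1 and 0.0433 for copy 2).

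The related stathmin 4 had a log2 fold change of -0.47 ± 0.19 (SE) for copy 2 (ENSDARG00000043932) and -0.38 ± 0.25 (SE) for copy 1 (ENSDARG00000030106). STMN4 copy 2 had 5.47, 4.25 and 3.84 CPM in mutants and 6.86, 6.66 and 4.42 CPM in wildtypes of line 36433, and 4.41, 3.24 and 3.67 CPM in mutants and 4.797 and 6.24 CPM in wildtypes of line 23095. The splicing regulator gene rbfox1 had 15.9, 16.2 and 19.5 CPM in mutants and 23.02, 13.7 and 18.9 CPM in wildtypes of line 36433, and 10.9, 18.9 and 10.6 CPM in mutants and 21.5 and 23.2 CPM in wildtypes of line 23095, and its log2 fold change was -0.11 ± 0.23 (SE) in line 36433 and -0.76 ± 0.26 (SE) in line 23095. Both genes overlapped between the 36433 groups and were separate between the 23095 groups. The RNA-binding protein gene elavl4 had -0.40 ± 0.21 (SE) on average, the tau gene mapta -0.25 ± 0.19 (SE) and the kinesin gene kif5aa -0.22 ± 0.18 (SE). The intermediate filament gene INA had -0.40 ± 0.24 (SE) for copy 2 (ENSDARG00000053248) and 0.05 ± 0.49 (SE) for copy 1 (ENSDARG00000011862), and the RNA-binding protein gene CELF3 had 0.27 ± 0.23 (SE) for copy 1 (ENSDARG00000006983) and 0.03 ± 0.17 (SE) for copy 2 (ENSDARG00000034668).

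Channels, pumps, receptors and guidance molecules of the neuronal membrane gave 11 identifiers, all with a log2 fold change below 0 on average (9 when libraries were scaled by their totals alone). None was called by the Benjamini-Hochberg adjusted quasi-likelihood test of edgeR or by DESeq2, and the median was -0.25. At an unadjusted p under 0.05, 2 were lower and 0 higher (8.83% and 8.57% of all genes). The voltage-gated sodium channel gene SCN8A had 31.5, 26.9 and 30.3 CPM in mutants and 39.9, 25.1 and 38.2 CPM in wildtypes of line 36433, and 31.8, 31.99 and 29.8 CPM in mutants and 44.8 and 42.99 CPM in wildtypes of line 23095 for copy 1 (ENSDARG00000005775). The 36433 groups overlapped and the 23095 groups did not, and the average log2 fold change was -0.36 ± 0.13 (SE). Copy 2 (ENSDARG00000018032) had -0.15 ± 0.15 (SE) on average. The beta subunit gene of the sodium pump, ATP1B2, had 36.9, 36.6 and 33.5 CPM in mutants and 51.4, 33.3 and 41.7 CPM in wildtypes of line 36433, and 40.3, 39.5 and 38.4 CPM in mutants and 48.98 and 45.5 CPM in wildtypes of line 23095 for copy 2 (ENSDARG00000099203), a log2 fold change of -0.25 ± 0.12 (SE). Copy 1 (ENSDARG00000034424) had 3 to 35 reads per library, with 0.312, 0.5004 and 0.217 CPM in mutants and 0.7695, 0.538 and 0.256 CPM in wildtypes of line 36433, and 0.537, 1.04 and 0.169 CPM in mutants and 2.21 and 0.746 CPM in wildtypes of line 23095, and its log2 fold change was -1.04 ± 0.50 (SE).

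Among the neurotrophin receptors, NTRK3 had log2 fold changes of -0.63 ± 0.32 (SE) for copy 2 (ENSDARG00000086214) and -0.26 ± 0.17 (SE) for copy 1 (ENSDARG00000077228), and ntrk2a had -0.25 ± 0.14 (SE). NTRK3 copy 2 had 1.17, 1.56 and 0.724 CPM in mutants and 1.54, 1.82 and 1.41 CPM in wildtypes of line 36433, and 1.31, 2.33 and 0.734 CPM in mutants and 1.83 and 2.98 CPM in wildtypes of line 23095, and its groups overlapped in both lines. The axonal adhesion gene cntn2 had -0.11 ± 0.14 (SE), the pump alpha subunit gene atp1a3a -0.05 ± 0.23 (SE), and SLIT1, whose product repels axons, -0.04 ± 0.13 (SE) for copy 1 (ENSDARG00000044954) and -0.14 ± 0.20 (SE) for copy 2 (ENSDARG00000099446).

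The roles were set against each other within a library by dividing the summed CPM of a role by that of the 15 transcription factor identifiers. This ratio does not depend on the scaling of the library, and no test was made of it because the members were chosen with earlier results known. For the synaptic identifiers the ratio was 0.462, 0.439 and 0.377 in the 36433 mutants, 0.462, 0.489 and 0.617 in the 36433 wildtypes, 0.433, 0.456 and 0.346 in the 23095 mutants and 0.693 and 0.675 in the 23095 wildtypes. The highest 36433 mutant met the lowest 36433 wildtype, and the 23095 groups were apart. The synaptic sum rests mostly on few identifiers: of 124.4 CPM in 23095 wildtype replicate 1, SNAP25 copy 1 gave 37.2 and nrxn1a 40.8 CPM. The largest part of the divisor, MYT1 copy 1, had 57.1, 68.7 and 60.9 CPM in mutants and 46.5 and 54.7 CPM in wildtypes of line 23095. A synaptic ratio without these identifiers was not computed. For the transmitter identifiers the ratio was 0.195 to 0.203 in the 36433 mutants, 0.213 to 0.248 in the 36433 wildtypes, 0.171 to 0.223 in the 23095 mutants and 0.242 to 0.297 in the 23095 wildtypes, with no overlap in either line. The undivided transmitter sums overlapped in both lines. By themselves, only GAD1 copy 1 (both lines) and slc32a1 (line 23095) were lower without overlap, and the ratio without these identifiers was not computed. For the cytoskeletal identifiers the ratio was 2.35 to 2.53 in the 36433 mutants, 2.36 to 2.39 in the 36433 wildtypes, 2.21 to 2.66 in the 23095 mutants and 2.55 to 2.79 in the 23095 wildtypes, and the groups overlapped in both lines. For the membrane identifiers it was 1.68 to 1.90 in the 36433 mutants, 1.66 to 1.99 in the 36433 wildtypes, 1.72 to 2.31 in the 23095 mutants and 2.23 to 2.49 in the 23095 wildtypes. These groups too overlapped in both lines.

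**Figure D3:**
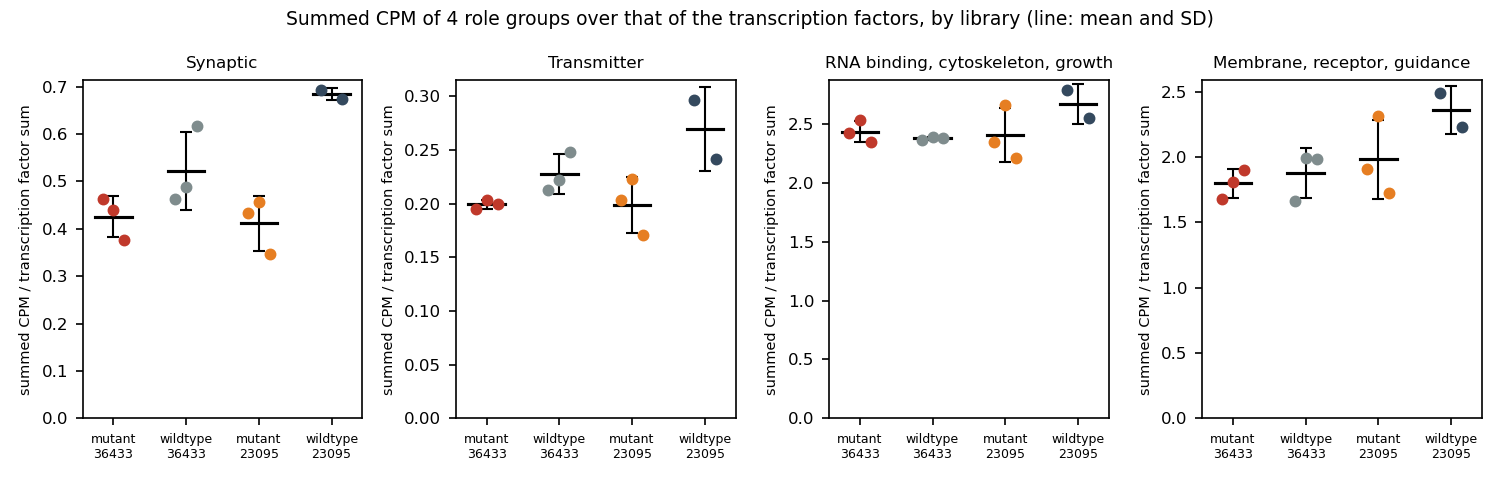
Summed CPM of each of 4 roles divided by the summed CPM of the transcription factors (y axis, from 0) in each library (points) of the 4 groups (x axis), with the group mean and SD as lines. Synaptic and transmitter ratios are lower in the mutants of each line, with 1 pair of synaptic values meeting at 0.462 in line 36433, and the other 2 roles overlap in both lines. SNAP25 copy 1 and nrxn1a are the largest parts of the synaptic sum.

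Taken line by line, no identifier was called. In line 36433, the Benjamini-Hochberg adjusted quasi-likelihood test of edgeR called 0 of 57 and 0.168% of all genes (0.0479% lower), 5 were lower and 0 higher at an unadjusted p under 0.05 (2.64% and 4.11% of all genes), and DESeq2 called 0 (0.594% of all genes). The median log2 fold change was -0.19, against -0.02 over all genes, and 43 of 57 were below 0. Without wildtype replicate 1 of this line the median was -0.02, against 0.001 over all genes, with 30 of 57 below 0, and without mutant replicate 3 it was -0.10 with 38 below 0. In line 23095, edgeR called 0 of 57 and 1.63% of all genes (0.934% lower), 11 were lower and 1 higher at an unadjusted p under 0.05 (8.91% and 7.92% of all genes), and DESeq2 called 3 lower, against 4.69% of all genes called and 2.65% lower. These 3 were nefma, syn2a and GAD1 copy 1, and their log2 fold changes by edgeR were -1.84, -1.06 and -1.29. The median in this line was -0.25, against 0.02 over all genes, and 38 of 57 were below 0. Without mutant replicate 4 of this line the median was -0.12, and without mutant replicate 2 it was -0.42. Scaling by library totals alone moved the median of all genes in this line to 0.14 and that of the 57 identifiers to -0.14, so the identifiers lay 0.28 below all genes there and 0.27 below them with TMM scaling. Without 23095 mutant replicate 2, edgeR called GAD1 copy 1 (-1.68) and rbfox1 (-1.06) lower in this line.

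Groups that did not overlap were counted next. In line 36433, 3 identifiers were lower in every mutant than in every wildtype library and 0 were higher, against 6.28% and 7.23% of all genes. In line 23095, 19 were lower and 5 higher, against 17.4% and 16.4% of all genes, and the 19 included 6 of 8 synaptic, 5 of 17 cytoskeletal, 5 of 11 membrane, 2 of 6 transmitter and 1 of 15 transcription factor identifiers. STMN2 copy 1, GAD1 copy 1 and ISL2 copy 2 were lower without overlap in both lines and 0 identifiers were higher in both, against 1.44% and 2.58% of all genes. A log2 fold change below 0 in both lines was found for 31 of 57 identifiers (54.4%), against 30.4% of all genes: 7 of 8 synaptic, 3 of 6 transmitter, 10 of 17 cytoskeletal, 7 of 11 membrane and 4 of 15 transcription factor identifiers. Without single libraries this count was 24 to 34, lowest without 36433 wildtype replicate 1.

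**Figure D4:**
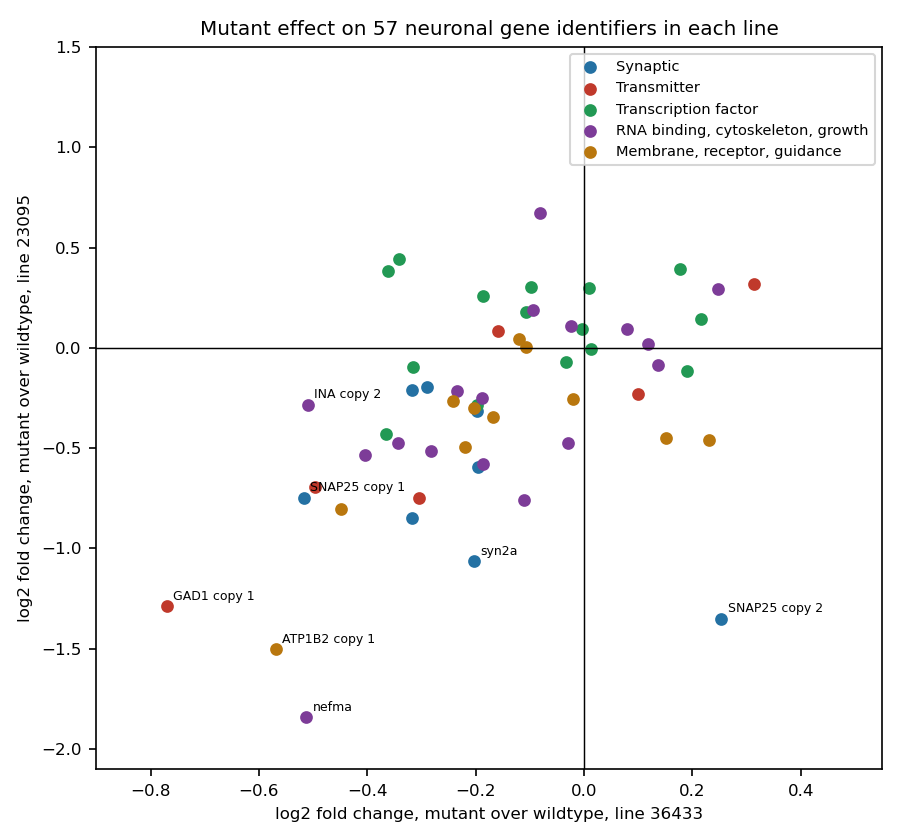
Log2 fold change of mutant over wildtype in line 36433 (x axis) and in line 23095 (y axis) for each of the 57 identifiers, coloured by role. Below 0 in both lines are 31 identifiers, among them 7 of the 8 synaptic ones, and GAD1 copy 1, ATP1B2 copy 1 and nefma lie farthest to the lower left.

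The mutant effects were then compared between the lines. For the difference (line 23095 minus line 36433), edgeR called 0 of 57 identifiers and 0.00958% of all genes after Benjamini-Hochberg adjustment. At an unadjusted p under 0.05, 3 identifiers were lower and 0 higher (4.26% and 3.34% of all genes), and DESeq2 called 0. The 3 were SNAP25 copy 2, syn2a with -0.86 ± 0.39 (SE) and cntn2 with -0.69 ± 0.29 (SE). A difference between the lines was therefore not detectable with these libraries, and the standard errors of single identifiers were up to 1.02 on the log2 scale.

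Between the lines themselves, no neuronal identifier was called either. Wildtypes of line 23095 against wildtypes of line 36433 gave 0 calls by the Benjamini-Hochberg adjusted quasi-likelihood test of edgeR (0.393% of all genes, 0.139% lower) and 0 by DESeq2. At an unadjusted p under 0.05, 6 were higher and 1 lower, against 7.60% and 6.09% of all genes. The 11 membrane identifiers were all above 0 here, with a median of 0.37, and nrxn1a had 0.69 ± 0.27 (SE) and SCN8A copy 2 0.77 ± 0.21 (SE). Mutants of line 23095 against mutants of line 36433 gave 0 calls by edgeR (1.13% of all genes, 0.637% lower) and 0 by DESeq2, and the median was 0.04. At an unadjusted p under 0.05 edgeR found 0, against 7.12% of all genes lower and 6.66% higher, and DESeq2 found 1. In the mutants of line 23095 against the wildtypes of line 36433, where line and genotype cannot be told apart, edgeR called 0 (6.71% of all genes, 3.47% lower). At an unadjusted p under 0.05, 8 were lower and 1 higher, against 12.9% and 12.6% of all genes. DESeq2 called 1, GAD1 copy 1, which was lower, and 11.4% of all genes. Without 36433 wildtype replicate 1, edgeR called elavl3, MYT1 copy 1 and SLIT1 copy 2 higher in this comparison, with log2 differences of 0.71, 0.58 and 0.86. Without 23095 mutant replicate 2 it called GAD1 copy 1, with -1.35. Comparisons in this and the preceding paragraphs share groups, so their counts are not independent.

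In the authors' deposited table for line 23095, 3 of the 57 identifiers had an adjusted p under 0.05, all lower in mutants, against 4.64% of all genes with an adjusted p there and 2.62% lower: GAD1 copy 1 with a log2 fold change of -0.95, nefma with -1.08 and syn2a with -0.83. The authors' deposited table for line 36433 had 0 such identifiers (0.573% of all genes). The authors' deposited table of 23095 mutants against 36433 wildtypes had 1 (10.5% of all genes), GAD1 copy 1 with -0.74, and their tables of mutants against mutants and of wildtypes against wildtypes had 0 (2.50% and 2.52% of all genes). In the authors' deposited table of 23095 wildtypes against 36433 mutants, STMN2 copy 1 (0.63) and nrxn1a (0.82) were higher in the wildtypes, and 2.88% of all genes were called there.

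A further 6 lists of neural genes, which share no identifier with the 57, were counted beside them. They too were chosen with earlier results of these data known. Transmitter pathway genes, 10 tested, included 4 that fell on average and 0 that rose, while 1.03% of all genes fell. All 10 log2 fold changes were below 0 with a median of -0.75. The glycine transporter gene SLC6A5, which marks glycinergic interneurons, had 10.8, 9.45 and 10.6 CPM in mutants and 16.3, 10.6 and 20.4 CPM in wildtypes of line 36433, and 12.4, 8.55 and 5.87 CPM in mutants and 28.5 and 18.7 CPM in wildtypes of line 23095, a log2 fold change of -1.01 ± 0.21 (SE) (adjusted p = 0.0287, Benjamini-Hochberg, edgeR quasi-likelihood). The channel gene PKD2L1 and the peptide gene urp1 both mark cerebrospinal fluid-contacting neurons, which in zebrafish release GABA. PKD2L1 had 10.8, 12.7 and 10.8 CPM in mutants and 17.8, 12.98 and 19.9 CPM in wildtypes of line 36433, and 9.18, 11.9 and 6.38 CPM in mutants and 21.2 and 22.9 CPM in wildtypes of line 23095, a log2 fold change of -0.93 ± 0.16 (SE) (adjusted p = 0.0142, edgeR).

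The peptide gene urp1 was low in all groups, with 0.312, 1.13 and 0.0724 CPM in mutants and 2.05, 2.69 and 2.56 CPM in wildtypes of line 36433, and 1.07, 0.907 and 0.395 CPM in mutants and 3.41 and 2.37 CPM in wildtypes of line 23095. In the mutants these values rest on few reads. Its mutant libraries lay below the wildtype libraries in both lines, as did those of PKD2L1, and its log2 fold change was -2.04 ± 0.43 (SE) (adjusted p = 0.0292, Benjamini-Hochberg, edgeR quasi-likelihood). Acetylcholinesterase, ACHE, which breaks down acetylcholine at synapses and is also made by muscle, had 67.4, 89.4 and 69.2 CPM in mutants and 90.99, 61.6 and 109.7 CPM in wildtypes of line 36433, and 73.4, 54.8 and 26.8 CPM in mutants and 165 and 151 CPM in wildtypes of line 23095. Its log2 fold change was -0.91 ± 0.22 (SE) (adjusted p = 0.0495, edgeR), with overlap in line 36433 only. The summed CPM of 12 skeletal muscle markers was also lower in the 23095 mutants (12240 to 22890) than in the 23095 wildtypes (27700 to 33070), and its part in the ACHE values was not tested. EdgeR called none of the other 6 on average, and DESeq2 called 6 of the 10 lower, against 2.52% of all genes. Of the 6 that edgeR did not call, the glycine receptor GLRA1 had -0.74 and the acetylcholine synthesis enzyme CHAT -0.61. The vesicular acetylcholine transporter SLC18A3 had -0.20 and the 2 gephyrin identifiers -0.27 and -0.51.

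**Figure D5:**
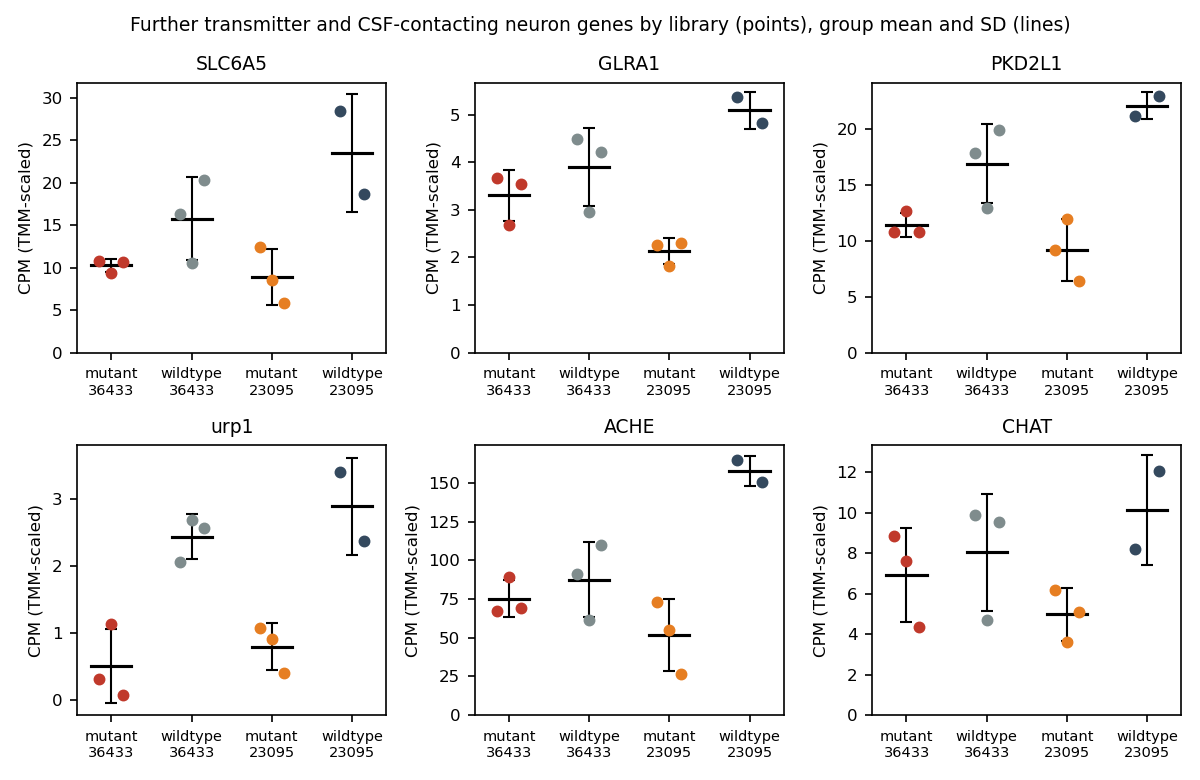
CPM after TMM scaling (y axis) in each library (points) of the 4 groups (x axis) for 6 genes of the transmitter pathway list, with the group mean and SD as lines. PKD2L1 and urp1 are lower in every mutant than in every wildtype library of their line, and SLC6A5, ACHE, GLRA1 and CHAT are separate in line 23095 and overlap in line 36433.

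In line 23095, SLC6A5, GLRA1, ACHE and PKD2L1 fell, with log2 fold changes of -1.40, -1.23, -1.61 and -1.29, while 0.934% of all genes fell. The summed CPM of the 10 genes, of which ACHE was the largest part, was 290.3 to 316.8 in the 23095 wildtypes. It was 139.2 to 225.3 in the 36433 wildtypes, 150.4 to 179.3 in the 36433 mutants and 86.35 to 162.1 in the 23095 mutants. The 2 wildtype libraries of line 23095 thus lay apart from all others, and their part in these falls was not tested. In line 23095 all 10 were lower at an unadjusted p under 0.05, against 8.91% of all genes. In line 36433 none of the 10 was called by the Benjamini-Hochberg adjusted quasi-likelihood test of edgeR. At an unadjusted p under 0.05, 3 were lower (2.64% of all genes), and DESeq2 called 1 lower (0.187% of all genes). No difference between the lines was called for the 10. The calls depended on single libraries. On average over both lines, SLC6A5 lost its call without 36433 mutant replicate 1, 2 or 3, 36433 wildtype replicate 3 or 23095 wildtype replicate 1 (adjusted p = 0.0636 to 0.192, edgeR), and PKD2L1 without 36433 mutant replicate 3 or either 23095 wildtype (0.051 to 0.0711). The call of urp1 was lost without 36433 mutant replicate 1 or 3, 36433 wildtype replicate 2 or 3, 23095 mutant replicate 4 or either 23095 wildtype (adjusted p = 0.0557 to 0.162, edgeR). That of ACHE was lost without any 36433 mutant, 36433 wildtype replicate 3, 23095 mutant replicate 2 or either 23095 wildtype (adjusted p = 0.0645 to 0.213, edgeR). In line 23095, the 4 calls were each lost without 23095 mutant replicate 4 (adjusted p = 0.0732 to 0.125, edgeR) and without either wildtype library (0.0806 to 0.459). There SLC6A5, GLRA1 and ACHE also lost theirs without any 36433 mutant (0.0502 to 0.0754) or 23095 mutant replicate 2 (0.0543 to 0.0747), and GLRA1 without 36433 wildtype replicate 3 (0.0564) or 23095 mutant replicate 1 (0.0614). With scaling by library totals alone, ACHE on average had an adjusted p of 0.0528 by edgeR.

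The other 5 lists held fewer calls. Over all genes, edgeR called 2.33% on average and DESeq2 5.19%, and 8.57% were higher and 8.83% lower at an unadjusted p under 0.05. Synapse machinery genes, 19 tested, had 0 calls by edgeR on average, 1 by DESeq2 (higher), 1 higher and 2 lower at an unadjusted p under 0.05, and a median of -0.21. The vesicle GTPase gene RAB3A (ENSDARG00000043835) had 0.68. Spinal subtype factors, 25 tested, had 0 calls by edgeR and 1 by DESeq2 (higher), 1 higher and 3 lower at an unadjusted p under 0.05 and a median of -0.09, with 0.59 for en1b and -0.48 for EBF3. Neural progenitor genes, 29 tested, had 0 calls by edgeR and 0 by DESeq2, 2 higher and 5 lower at an unadjusted p under 0.05 and a median of 0.00, with -0.76 for ascl1a and -0.48 for SOX1 (ENSDARG00000008131). Of 21 axon guidance genes, the repellent gene SEMA3D rose by 0.50 (adjusted p = 0.024, Benjamini-Hochberg, edgeR), and in line 23095 SEMA3D rose by 0.74 and the adhesion gene l1cama fell by 0.97. By DESeq2, 3 of these 21 were called higher and 1 lower on average. In line 23095 it called 2 higher and 1 lower, against 4.69% of all genes. The SEMA3D call on average held in 3 of the 11 fits that left out 1 library and was lost without any 36433 mutant, 36433 wildtype replicate 2 or 3, 23095 mutant replicate 4 or either 23095 wildtype (adjusted p = 0.0516 to 0.156, edgeR). In line 23095, SEMA3D and l1cama lost theirs without any 36433 mutant, 23095 mutant replicate 4 or either 23095 wildtype (adjusted p = 0.0577 to 0.414, edgeR). Of 6 REST and CoREST genes, kdm1a fell and RCOR2 had 0.42 (adjusted p = 0.0693, edgeR). By DESeq2, 1 of these 6 was called higher and 1 lower on average.

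Markers of other tissues in the tail were called as well. Over all genes, edgeR called 2.33% on average and 1.63% in line 23095, and DESeq2 called 5.19% on average. The summed CPM of the 12 skeletal muscle markers overlapped in line 36433, with 15770 to 22290 in the mutants and 14530 to 21780 in the wildtypes, and 3 of the 12 fell in line 23095. For 12 tailbud and presomitic markers it was 142.4 to 187.1 in the 36433 mutants, 134.6 to 166.2 in the 36433 wildtypes, 145.2 to 247.5 in the 23095 mutants and 87.99 to 98.79 in the 23095 wildtypes, and 4 rose in line 23095. Myeloid markers summed to 8.47 to 12.3 CPM in the 36433 mutants, 14.4 to 29.6 CPM in the 36433 wildtypes, 6.61 to 9.12 CPM in the 23095 mutants and 20.3 to 24.1 CPM in the 23095 wildtypes, and 4 of the 5 fell on average. Head markers, 8 tested, summed to 24.3 to 31.9 CPM in the 36433 mutants, 18.7 to 23.8 CPM in the 36433 wildtypes, 25.6 to 28.3 CPM in the 23095 mutants and 17.7 to 20.2 CPM in the 23095 wildtypes, without overlap in either line, and 1 of the 8, EN2 (ENSDARG00000026599), rose on average by edgeR, and DESeq2 called 1 of the 8 higher. This sum rested mostly on EMX2 and that EN2 identifier, with 1535 and 1292 counts over all libraries, followed by LHX2 with 371. The median log2 deviation of the 8 overlapped in line 36433, with -0.01 to 0.33 in mutants and -0.58 to 0.18 in wildtypes. In line 23095 it did not overlap, with -0.05 to 0.42 in mutants and -0.19 to -0.08 in wildtypes. By edgeR on average, 2 of 10 neural crest markers rose, 1 of 6 endothelial markers rose and 1 of 8 epidermal markers fell. DESeq2 called 3 neural crest markers higher and 2 lower, 4 endothelial markers higher and 1 epidermal marker lower. Of the 12 tailbud and presomitic markers it called 7 higher on average and 7 higher in line 23095. Of the 12 skeletal muscle markers it called 2 lower on average, and 5 lower and 1 higher in line 23095. Of the 5 myeloid markers it called 4 lower on average. In line 23095, DESeq2 called 4.69% of all genes. Of 6 lateral line and ganglion markers, 0 were called by edgeR or DESeq2, with 1 lower at an unadjusted p under 0.05. The part of these tissues, and of head tissue, in the neuronal values was not tested.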

How the data were processed

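RNA was sequenced from 11 pools of 5 tails each with a stranded total RNA kit and ribosomal RNA removal, per the labels' protocols. Reads were trimmed with cutadapt 1.16 and aligned with STAR 2.7.2c to GRCz11, per the submitters' processing notes. For the counting tool and the annotation, the sources used here give no name. As deposited by the authors, the main table holds whole-number counts per gene and sample with no normalization. They also deposited tables of log2 fold changes made with DESeq2 1.22.2, per the submitters' processing notes. The adjusted p-values beside them are the authors' deposited values, and both are used only where named. Differences are mutant minus wildtype, or line 23095 minus line 36433.

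The counts were fitted here with edgeR 4.0.16 (R 4.3.3, limma 3.58.1) by a quasi-likelihood model of 4 group means over all 11 libraries with TMM scaling, which leaves 7 residual degrees of freedom. Genes were kept by filterByExpr (minimum count 10, minimum total 15), and p-values were adjusted by Benjamini-Hochberg over the 20886 genes kept. Calls are genes whose adjusted p was under 0.05. CPM values are counts divided by TMM-scaled library sizes, with no length term, so levels are not compared between genes.

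The 49 names were matched by zebrafish symbol or synonym (10 names) or by the symbol of the human ortholog (38 names) in the gene name table. The members and the other lists were chosen with earlier results of these data known. Values per library are given for each called member, otherwise for up to 4 members per role with the smallest p on average and up to 2 per role in each line. SNAP25 copy 2, gad2, mnx1 and elavl3 are also given per library and were chosen after their values were seen. Of the other lists, called genes are named, and otherwise up to 2 per list. Some genes that this rule or these lists hold are not reported here. The alternatives were other scalings and filters, DESeq2 1.42.0, the replicate number as a block, only the groups compared, leaving out each library, and matching by symbol only. Promoter sequences were not analysed here.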

Additional observations from a re-analysis of the deposited data

Results flagged for a closer look

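The mutant effect on kdm1a (KDM1A, ENSDARG00000060679), the gene whose mutants were studied, was unequal in the 2 lines, with a log2 difference of 2.204, line 23095 minus line 36433 (SE 0.22, adjusted p = 0.00407, interaction contrast of edgeR's quasi-likelihood model). Its log2 fold change was 0.11 in line 23095 and -2.095 in line 36433. No neuronal identifier met the same rule.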

How the results depend on the processing

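On average over both lines, edgeR called 1 of the 57 identifiers and DESeq2 called 5, and leaving out single libraries gave 0 to 3. The count was 0 with members matched by symbol or synonym only (10 identifiers), which leaves out GAD1. In 2 alternatives chosen after seeing the data it was also 0: with the 31 identifiers whose name led to 1 identifier, which leave out GAD1 too, and with copies of a symbol summed (44 symbols). In line 23095 edgeR called 0 and DESeq2 called 3, and leaving out single libraries gave 0 to 2. For mutants of line 23095 against wildtypes of line 36433 edgeR called 0 and DESeq2 called 1, and leaving out single libraries gave 0 to 3. The cause of these differences was not tested. The counts of the other 4 comparisons stayed at 0 under each alternative run. The median log2 fold change of the identifiers on average stayed between -0.28 and -0.12 without single libraries and between -0.22 and -0.07 otherwise. The -0.07 came from the 31 identifiers with 1 identifier per name. Over all genes the average effect gave 486 calls, and 56 to 1439 without single libraries. Deviations from the group mean were correlated between mutant and wildtype libraries of a line. Those with the same number gave 0.20, 0.08 and 0.02 in line 36433 and -0.08 and -0.18 in line 23095. The other pairs of line 36433 gave -0.20 to 0.16. With 2 wildtype libraries in line 23095, their deviations mirror each other, so the values there cannot show a pairing. Whether the numbers pair the samples was not settled. With the replicate number as a block, the average effect had 0 member calls (GAD1 copy 1 -0.88, adjusted p = 0.150 by edgeR) and 108 calls over all genes. Under that block SLC6A5 kept its average call (adjusted p = 0.0429, edgeR), and PKD2L1, ACHE, urp1 and SEMA3D lost theirs (0.0644 to 0.134), as did the calls named in line 23095 (0.13 to 0.230). The block moved the members' median to -0.12 on average and to -0.09 in line 23095. It joined libraries of the same number over both lines. Number 4 belonged to 23095 mutant replicate 4 alone, so the block in effect left that library out. Without that library and without a block, the median was -0.12 on average and -0.12 in line 23095. The block therefore cannot show an effect of pairing apart from the loss of that library. Groups of 2 or 3 pools limit the precision, and identifiers with under 60 reads per library, such as nefma and ATP1B2 copy 1, have wide errors (SE 0.33 and 0.50 for the average log2 fold change).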
